A study of Mus musculus with 6 samples.

Results

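The enzymes of fatty acid oxidation were examined in liver of mice in which hepatocytes were to lose Pdss2, a gene needed to make coenzyme Q (CoQ). A list of 41 genes was chosen for this pathway, and every probe set of the deposited table that carries the symbol of exactly 1 of them was taken. This gave 72 probe sets of 39 genes, out of 34958 probe sets with 1 symbol and 45101 in all. Of these genes 16 encode mitochondrial enzymes and 15 peroxisomal ones. The other 8 are acyl-CoA synthetases, cytosolic thioesterases, and enzymes found in both compartments or of unsettled place. Cpt1b and Acsl1 have no such probe set and were not analysed here.

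The mutants were 3 B6.Alb/cre,Pdss2loxP/loxP male mice, 176, 178 and 224 days old, in which cre made from the albumin promoter acts on Pdss2 in hepatocytes and leaves the gene in other liver cells. The controls were 3 B6.Pdss2loxP/loxP males, 209, 213 and 140 days old, so that both groups carried the loxP-flanked alleles. The genotypes were caged apart, food was taken away 3 hours before killing, and the labels name control 1 as the concurrent control of mutant 3. Total liver RNA of each mouse was hybridized to 1 Affymetrix array, and all values below are log2 values per probe set as the authors deposited them. A difference is the mean of the mutants less that of the controls, in log2 units. A rise or a fall is stated only where limma gave an adjusted p under 0.05, with the adjustment made over all 34958 probe sets.

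Fatty acids are shortened by repeated cycles of dehydrogenation, hydration, a second dehydrogenation and thiolysis. Mitochondria take up the bulk of long-chain fatty acids through the carnitine shuttle, and their acyl-CoA dehydrogenases pass electrons through the electron transfer flavoprotein and its dehydrogenase to CoQ. Peroxisomes shorten very long-chain and branched fatty acids, and their first oxidation step passes electrons to oxygen and not to CoQ. In liver both pathways are under control of the nuclear receptor PPAR alpha.

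The promoters of 34 of the 41 genes are held in the RefSeq table (GRCm38.p6), and 4 are shown as the 250 bases before the transcription start. Those of Acadl and Cpt2 are shown because these genes fell in mutants, that of Hadhb because it lies in the 272 bases between the divergently transcribed genes of both subunits of the trifunctional protein, and that of Acadvl because it holds a half-site of nuclear receptors such as PPAR alpha. Capitals mark AGGTCA or its reverse complement TGACCT, which were searched on both strands and cannot overlap each other in these windows.
Acadl (chr1:66863310-66863559, minus strand): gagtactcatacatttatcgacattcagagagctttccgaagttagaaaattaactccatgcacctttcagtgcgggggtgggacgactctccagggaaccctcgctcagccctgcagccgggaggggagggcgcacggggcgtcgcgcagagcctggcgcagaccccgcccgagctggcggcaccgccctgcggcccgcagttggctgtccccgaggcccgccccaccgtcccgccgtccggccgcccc
Cpt2 (chr4:107923590-107923839, minus strand): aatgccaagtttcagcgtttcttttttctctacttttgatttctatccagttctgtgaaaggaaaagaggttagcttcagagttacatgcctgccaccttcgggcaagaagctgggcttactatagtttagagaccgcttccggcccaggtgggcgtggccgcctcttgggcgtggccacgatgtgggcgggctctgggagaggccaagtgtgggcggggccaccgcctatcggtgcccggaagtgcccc
Hadhb (chr5:30155003-30155252, plus strand): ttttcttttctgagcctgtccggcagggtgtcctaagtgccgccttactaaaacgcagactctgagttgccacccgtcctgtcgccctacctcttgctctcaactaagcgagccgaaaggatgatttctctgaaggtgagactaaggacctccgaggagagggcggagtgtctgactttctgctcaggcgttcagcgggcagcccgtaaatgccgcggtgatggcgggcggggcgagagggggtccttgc
Acadvl (chr11:70015429-70015678, minus strand): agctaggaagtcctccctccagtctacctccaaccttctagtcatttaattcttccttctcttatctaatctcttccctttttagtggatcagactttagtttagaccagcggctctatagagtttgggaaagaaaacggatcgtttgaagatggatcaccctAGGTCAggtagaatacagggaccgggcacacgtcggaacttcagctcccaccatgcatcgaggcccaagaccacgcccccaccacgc
Of the 34 genes, 6 (17.6%) held the hexamer, namely Acadm, Acadvl, Acot12, Acot4, Cpt1a and Echs1, against 15.8% of 27025 genes in the table. The members' share was close to that of all genes.

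Mitochondrial enzymes were lower in mutants on 3 probe sets past the test, which read Cpt2, Acadl and Decr1, and none was higher. Peroxisomal enzymes gave no call in either direction. Over all 34958 probe sets 1.68% were called lower and 2.11% higher, and of the 72 member probe sets 3 were called lower and none higher. Of these 72, 19 were lower and 6 higher where the p was not adjusted (under 0.05), against 11.3% and 15.6% of all probe sets. Every mutant lay below every control on 18 and above on 7, against 12.5% and 20.8%, and 46 had a difference below 0, against 36.8%. The median difference was -0.71 over the brightest probe sets of the 16 mitochondrial genes and 0.05 over those of the 15 peroxisomal genes, beside 0.17 over all 18194 genes. The brightest probe set had a difference below 0 for 14 of 16 mitochondrial genes and for 7 of 15 peroxisomal genes, against 35.7% of all genes. The paper describes upregulation of fatty acid metabolism in these mutants. That result came from gene set enrichment over a KEGG pathway, not from single genes of a chosen list. For the mitochondrial enzymes the direction found here, with the arrays grouped by their labels, was opposite. An exchange of the group labels would turn every sign given here. A ranking of controls over mutants in the paper's enrichment would instead turn the direction that the paper reports. Neither was tested.

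**Figure D1:**
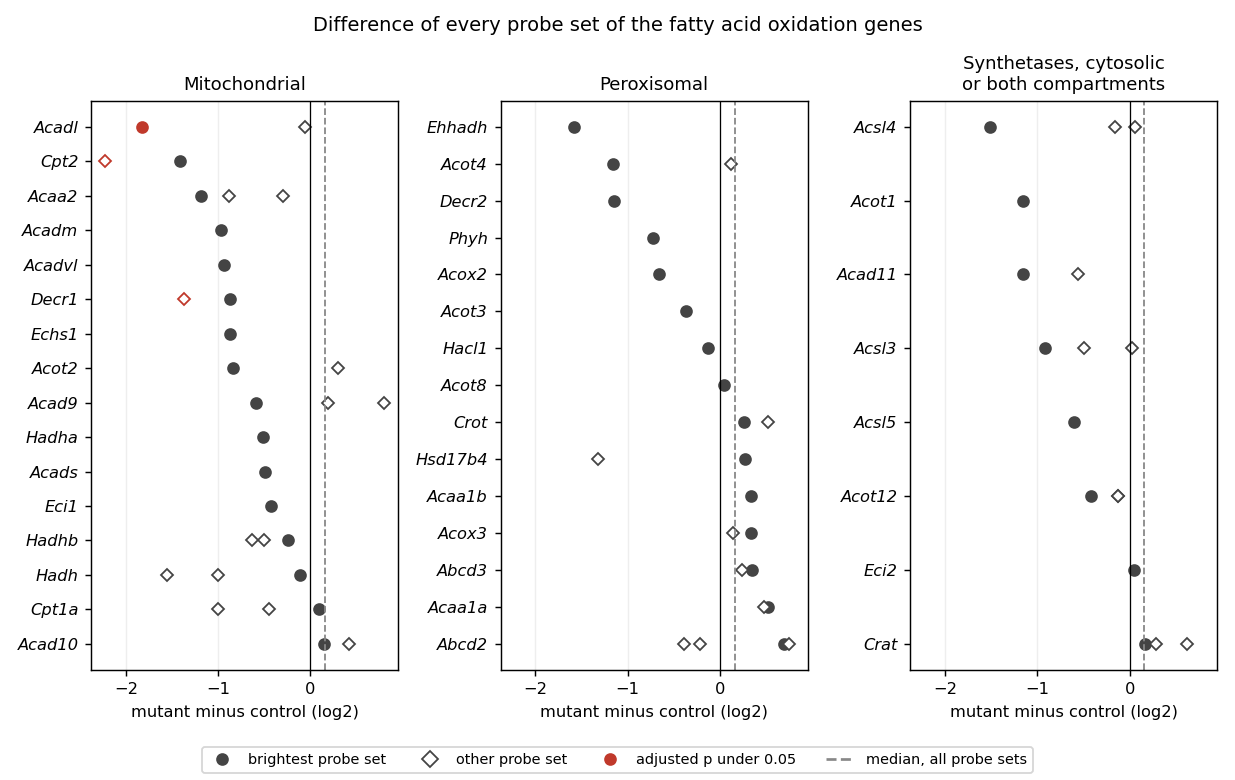
Difference between mutants and controls (horizontal axis, log2) of every probe set of each gene (vertical axis), with filled circles for the brightest probe set, open diamonds for others, red for an adjusted p under 0.05 and a dashed line at the median of all probe sets. The 3 red points are mitochondrial and lie at -2.22 (Cpt2), -1.83 (Acadl) and -1.37 (Decr1), whereas peroxisomal genes spread from -1.58 to 0.75.

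The calls depended on single mice. Limma called no member probe set without mutant 2, mutant 3, control 1, control 2 or control 3, and 20 lower ones without mutant 1. Leaving out those 5 mice took away nearly all calls of the whole table too, with 0 to 3 probe sets called and 6312 to 9746 at an unadjusted p under 0.05. With p under 0.05 before adjustment, 7 of 16 mitochondrial genes were lower and none was higher on the brightest probe set, and among all genes 12.3% were lower and 17.7% higher.

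Several measures of the arrays moved with genotype. Pdss2, the deleted gene, had log2 values of 6.94, 6.88 and 7.05 in the mutants and 7.46, 7.47 and 7.56 in the controls on its brightest probe set (-0.54, limma adjusted p = 0.104), and its other 2 probe sets differed by 0.35 and 0.40 with overlapping groups. The position of these probe sets relative to the deleted exon is not known here, so they do not check the deletion. The spiked bacterial transcripts averaged 11.06 to 11.66 on mutant arrays and 9.49 to 9.93 on control arrays. The 3′ minus 5′ signal of Gapdh was 0.45, -1.06 and -1.78 in the 3 mutants in order and 2.02 to 2.31 in controls. That of Actb overlapped, at 2.596, 3.946 and 4.495 in the mutants and 3.113 to 3.896 in controls. Of the hepatocyte markers Alb, Ttr, Apoa1, Cps1 and Tat none of 5 passed the test, and their summed level was 15.47 to 15.82 in mutants and 15.78 to 15.79 in controls. Of 6 endothelial markers Stab2 rose (1.82), with a summed level of 11.33 to 12.08 against 10.48 to 11.32, and of 4 bile duct markers Krt19 rose (1.08), with 8.30 to 8.71 against 7.89 to 8.06. Summed levels of 6 Kupffer cell markers were 9.74 to 10.20 and 8.99 to 9.66, and those of 6 stellate cell markers 11.37 to 11.71 and 11.29 to 11.88, with no call in either list. No defining marker of these 4 other cell types was at 0, but at most 27 values of any array were. This therefore does not show whether these cells were present. The part of any of these in the results was not tested, and fewer cells of a type and less RNA per cell cannot be told apart in whole liver.

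In the carnitine shuttle, Cpt2, the carnitine palmitoyltransferase of the inner mitochondrial membrane, fell on 1 of its 2 probe sets. Its brightest probe set read 8.77, 7.77 and 7.48 in the 3 mutants in order and 9.43, 9.40 and 9.42 in the controls, a difference of -1.41 (standard error 0.33, 3 mice in each group, limma adjusted p = 0.0552). Its second probe set read 6.38, 5.24 and 5.27 in mutants and 7.97, 7.77 and 7.82 in controls, a difference of -2.22 (standard error 0.32, adjusted p = 0.029 from limma), which leaves 21.4% of the control level. On both probe sets every mutant lay below every control, and mutant 1 was the highest of the mutants. The second probe set is of the kind that may share sequence with other transcripts, as its name ends in x_at.

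Cpt1a, the liver form of the outer membrane transferase that sets the rate of entry, gave no common direction. Its brightest probe set read 9.21, 10.76 and 8.40 in mutants and 9.04, 9.31 and 9.75 in controls, a difference of 0.09. Mutant 2 was above and mutant 3 below all controls. The other probe sets differed by -0.45 and -1.01, and the last was below the lower quartile of its array on all 6 arrays.

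Among the acyl-CoA dehydrogenases, which open each mitochondrial cycle, Acadl, the long-chain enzyme, fell. Its log2 values were 9.44, 8.36 and 7.96 in the 3 mutants in order and 10.27, 10.44 and 10.54 in the controls. The difference of -1.83 (standard error 0.36, 3 mice in each group, limma adjusted p = 0.0442) leaves 28.2% of the control level, and the groups did not overlap. The second probe set of Acadl was dim, at 3.90 to 5.07 on all arrays, and differed by -0.06. With the mean of its probe sets taken for each gene, Acadl differed by -0.94 and did not pass (adjusted p = 0.0779 from limma).

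The dehydrogenases for very long and medium chains had smaller differences. Acadvl read 9.98, 8.997 and 9.05 in mutants and 10.23, 10.14 and 10.46 in controls (-0.93, adjusted p = 0.0974 from limma). Acadm read 10.45, 10.002 and 9.87 against 10.71, 11.44 and 11.09 (-0.97, adjusted p = 0.0711 from limma). In both genes the groups did not overlap, with mutant 1 nearest to the controls. Acads, the short-chain enzyme, overlapped, at 6.94 to 8.87 in mutants and 8.06 to 9.15 in controls (-0.49).

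Acad9, a dehydrogenase that also takes part in the assembly of complex I, had probe sets of opposite sign. The brightest differed by -0.59 with overlapping groups, and the dimmest read 6.92, 6.61 and 6.95 in mutants and 5.91, 6.04 and 6.14 in controls (0.80, adjusted p = 0.0588 from limma). Acad10, of less known substrate, differed by 0.14 and 0.41 on its 2 probe sets, with overlapping groups on each.

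The later steps of the mitochondrial cycle gave no call. Hadha and Hadhb, the subunits of the trifunctional protein, which hydrates, dehydrogenates and cleaves long-chain intermediates, differed by -0.51 and -0.24 on their brightest probe sets (adjusted p = 0.356 and 0.49 from limma). Hadha read 9.04, 7.96 and 8.22 in mutants and 8.66, 8.75 and 9.36 in controls. The second probe set of Hadhb read 10.03, 9.08 and 8.69 in mutants and 9.63, 9.92 and 10.14 in controls. On these probe sets mutant 1 lay within the control range and mutants 2 and 3 below it. On the brightest probe set of Hadhb all mutants lay below the controls, at 10.74 to 11.15 against 11.19 to 11.37.

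Echs1, the short-chain enoyl-CoA hydratase, read 8.71, 7.48 and 7.22 in mutants and 8.68, 8.69 and 8.65 in controls. Its difference was -0.87 (adjusted p = 0.181 from limma), with mutant 1 level with the controls. Acaa2, the thiolase that ends the cycle, read 11.06, 9.43 and 8.83 against 10.92, 10.69 and 11.25 on its brightest probe set (-1.18, adjusted p = 0.192 from limma), and its other probe sets differed by -0.88 and -0.29. On all 3 of its probe sets mutant 1 was the highest mutant and mutants 2 and 3 were below all controls.

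Hadh, the short-chain hydroxyacyl-CoA dehydrogenase, differed by -0.12 on its brightest probe set, where all arrays lay between 12.53 and 12.83. On its second probe set it read 9.77, 7.51 and 7.02 in mutants and 9.32, 9.69 and 9.95 in controls (-1.55, adjusted p = 0.17 from limma). Probe sets of 1 gene thus gave differences of unlike size, with the groups overlapping on each.

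Of the auxiliary enzymes for unsaturated fatty acids, Decr1, the mitochondrial dienoyl-CoA reductase, fell on 1 of its 2 probe sets. Its second probe set read 6.94, 6.79 and 6.47 in mutants and 7.996, 8.08 and 8.23 in controls, a difference of -1.37 (standard error 0.20, 3 mice in each group, limma adjusted p = 0.029) that leaves 38.8% of the control level. Its brightest probe set read 9.23, 9.62 and 8.24 against 9.94, 9.74 and 10.04 (-0.87, adjusted p = 0.155 from limma). The groups did not overlap on either. With the mean of both, Decr1 differed by -1.12 and did not pass (adjusted p = 0.0541 from limma). Eci1, the enoyl-CoA isomerase, read 9.91, 10.37 and 9.96 in mutants and 10.53, 10.48 and 10.51 in controls (-0.43, adjusted p = 0.218 from limma), with no overlap.

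Acot2, a mitochondrial thioesterase that frees fatty acids from CoA, differed by -0.84 on its brightest probe set (adjusted p = 0.0701 from limma) and by 0.30 on the other. On the brightest, mutants read 6.92 to 7.10 and controls 7.55 to 8.21. In all, 8 of 16 mitochondrial genes had every mutant below every control on the brightest probe set and none had every mutant above, beside 14.1% and 23.3% of all genes.

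**Figure D2:**
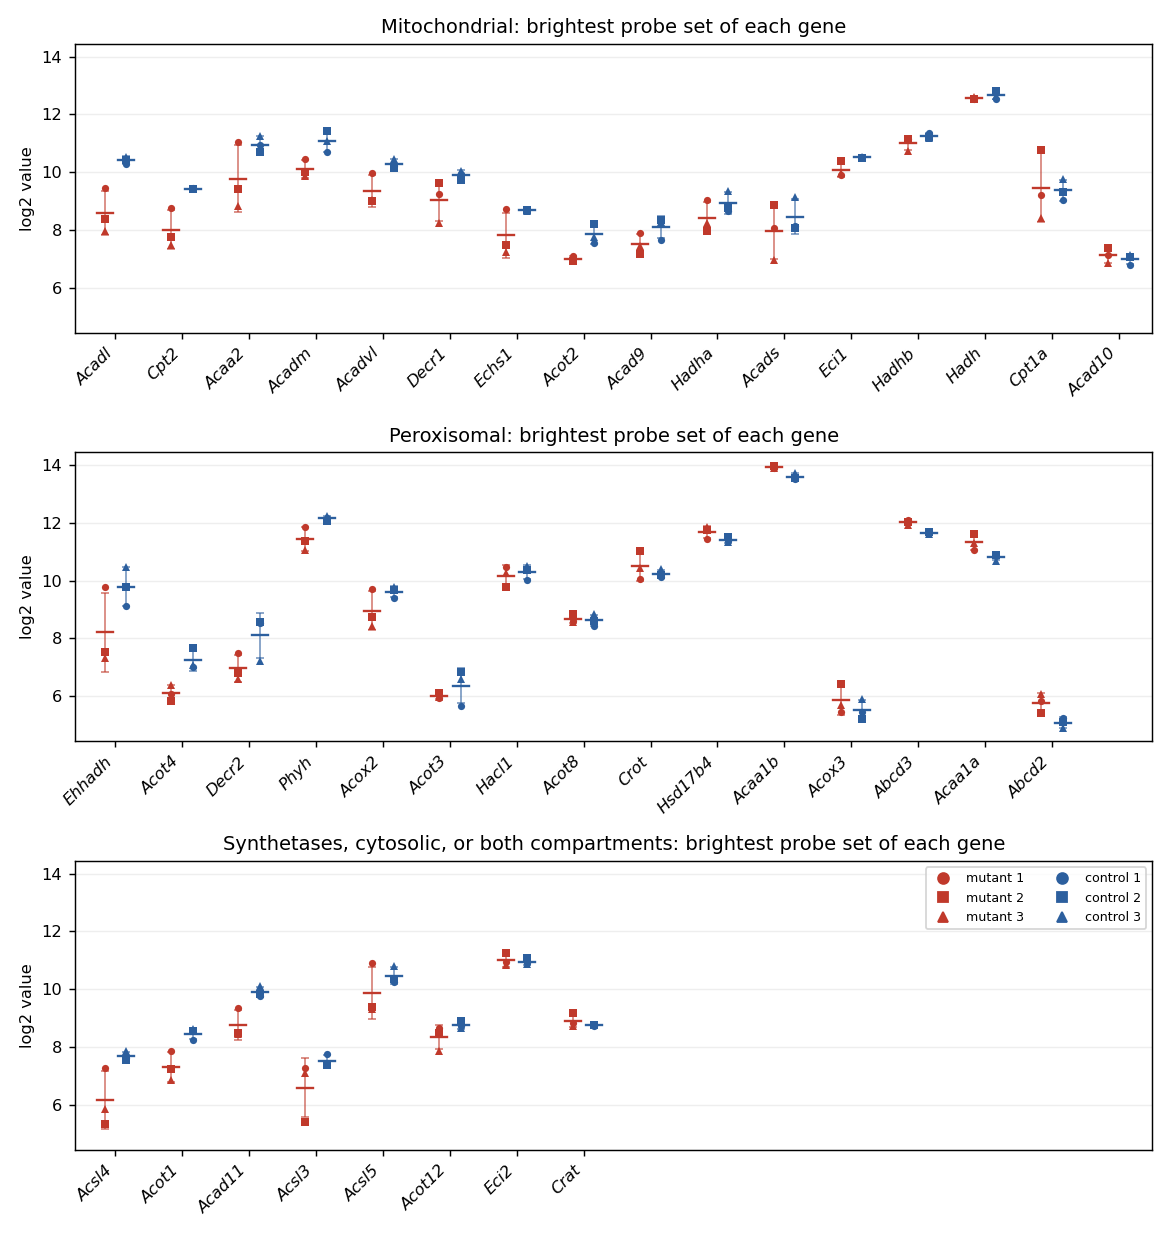
Log2 values (vertical axis) of the brightest probe set of each gene (horizontal axis, ordered by difference) for single mutants (red) and controls (blue), the line being the group mean and the bars 1 SD (n = 3). Mutants of Acadl sit at 7.96 to 9.44 below controls at 10.27 to 10.54, and those of Acaa1a at 11.07 to 11.61 above controls at 10.69 to 10.88.

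In peroxisomes, limma called 0 of 15 genes on the brightest probe set, with 4 lower and 2 higher before adjustment of p, beside 12.3% and 17.7% of all genes. Every mutant lay below every control for 2 of them and above for 4, beside 14.1% and 23.3% of all genes, so that these shares were near those of all genes. Acot4, a peroxisomal thioesterase for succinyl-CoA and other short dicarboxylic acyl-CoAs, came closest to the threshold. It read 6.07, 5.83 and 6.37 in mutants and 7.01, 7.66 and 7.06 in controls (-1.16, standard error 0.25, 3 mice in each group, limma adjusted p = 0.0509). Its other probe set differed by 0.12 with overlapping groups.

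Phyh, the phytanoyl-CoA hydroxylase that starts alpha oxidation of branched fatty acids, read 11.87, 11.36 and 11.05 in mutants and 12.16, 12.07 and 12.24 in controls (-0.73, adjusted p = 0.11 from limma). Hacl1, the lyase of the same pathway, differed by -0.13 with overlapping groups. Ehhadh, the bifunctional hydratase and dehydrogenase of straight chains, had the lowest difference of the class, -1.58 (adjusted p = 0.168 from limma). It read 9.78, 7.51 and 7.33 in mutants and 9.11, 9.79 and 10.47 in controls, so that mutant 1 lay within the control range.

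Hsd17b4, the bifunctional enzyme of branched chains and bile acid precursors, had probe sets of opposite sign. The brightest, whose name ends in x_at, read 11.44, 11.75 and 11.86 in mutants and 11.37, 11.53 and 11.35 in controls (0.27, adjusted p = 0.426 from limma). The other read 10.12, 9.13 and 8.92 against 10.52, 10.63 and 10.98 (-1.32, adjusted p = 0.0625 from limma), with every mutant below every control. Decr2, the peroxisomal dienoyl-CoA reductase, read 7.48, 6.81 and 6.59 in mutants and 8.53, 8.57 and 7.21 in controls (-1.15), and Acox2, the oxidase of branched chains, differed by -0.66, both with overlapping groups.

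The 4 of 15 genes with all mutants above all controls, a share close to the 23.3% of all genes, were the thiolases Acaa1a and Acaa1b and the membrane transporters Abcd3 and Abcd2, which carry acyl-CoAs into peroxisomes. Acaa1a read 11.07, 11.61 and 11.29 in mutants and 10.86, 10.88 and 10.69 in controls (0.52, adjusted p = 0.162 from limma), and its second probe set differed by 0.48. Abcd3 read 12.09, 12.04 and 11.91 against 11.70, 11.67 and 11.63 (0.35, adjusted p = 0.249 from limma), and Acaa1b differed by 0.33 (adjusted p = 0.274 from limma). Signals of Acaa1a and Acaa1b are uncertain as to gene, since these are near-identical paralogs, and all 3 of their probe sets had mutants above controls.

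Abcd2 had low values, at 5.84, 5.40 and 6.07 in mutants and 5.25, 5.10 and 4.89 in controls on its brightest probe set (0.69, adjusted p = 0.112 from limma). Its 4 probe sets ran from -0.39 to 0.75. The differences of Abcd3 and both thiolases, 0.33 to 0.52, are read beside a median of 0.17 over all genes. The remaining peroxisomal genes, the oxidase Acox3, the carnitine octanoyltransferase Crot and the thioesterases Acot3 and Acot8, differed by -0.37 to 0.34 on their brightest probe sets with overlapping groups.

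**Figure D3:**
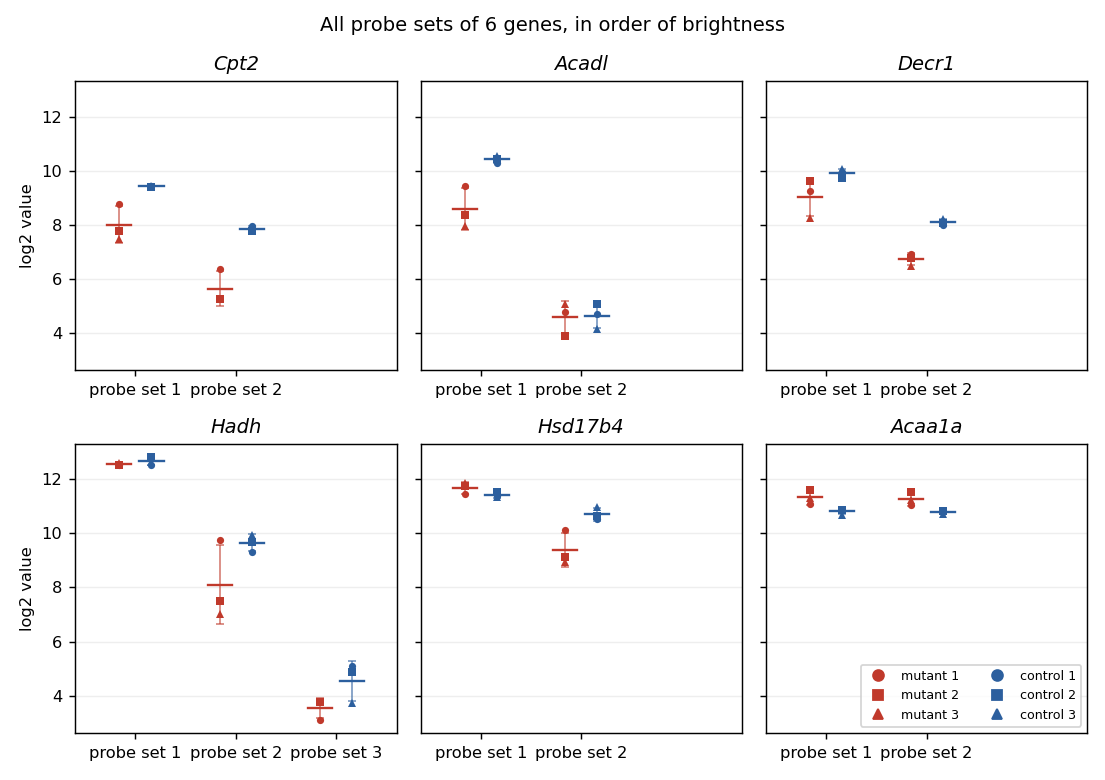
Log2 values (vertical axis) of every probe set of 6 genes (horizontal axis, from the brightest on) for single mutants (red) and controls (blue), the line being the group mean and the bars 1 SD (n = 3). Mutants lie below controls on both probe sets of Cpt2 and Decr1 and above on both of Acaa1a, while Acadl and Hsd17b4 separate downward on only 1 and Hadh on none.

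Acyl-CoA synthetases, which join fatty acids to CoA before either pathway, gave no call. Acsl4, which prefers arachidonic acid, read 7.28, 5.33 and 5.85 in mutants and 7.60, 7.56 and 7.84 in controls (-1.51, adjusted p = 0.0874 from limma), and its other probe sets differed by -0.16 and 0.06. Acsl3 differed by -0.92 on its brightest probe set with every mutant below every control, and Acsl5 by -0.60 with overlapping groups. Mutant 2 was the lowest for Acsl3 and Acsl4, at 5.40 and 5.33.

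Acad11, a dehydrogenase of long and very long chains, read 9.35, 8.46 and 8.44 in mutants and 9.75, 9.84 and 10.11 in controls (-1.15, adjusted p = 0.0613 from limma) and differed by -0.56 on its other probe set. Acot1, the cytosolic thioesterase, read 7.84, 7.22 and 6.84 against 8.25, 8.53 and 8.60 (-1.16, adjusted p = 0.0587 from limma). Every mutant lay below every control on the brightest probe set of both genes. Acot12, Eci2 and Crat, which acts on acetyl groups in both compartments, differed by -0.42, 0.04 and 0.16 with overlapping groups. Over these 8 genes limma called 0, with 3 lower and 0 higher before adjustment of p, beside 1.92% and 2.68% of all genes called lower and higher and 12.3% and 17.7% before adjustment. The median difference was -0.76.

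Mutants were not alike. With each gene set to its mean over the 6 arrays, the median of the mitochondrial genes was -0.02, -0.54 and -0.74 in the 3 mutants in order and 0.18, 0.30 and 0.48 in the controls. That of the peroxisomal genes was 0.01, -0.02 and 0.01 in mutants and -0.18, -0.02 and 0.18 in controls. For the 8 genes of the third class (synthetases, cytosolic, or both compartments) it was 0.07, -0.73 and -0.76 in mutants and 0.27, 0.34 and 0.49 in controls. Medians of the mitochondrial and of the third class thus separated by genotype, and peroxisomal ones overlapped. Of the 8 genes of the third class 4, 6 and 7 lay below all controls in mutants 1 to 3, and 2, 2 and 0 above. Of the 16 mitochondrial genes 10, 13 and 14 lay below all controls in mutants 1 to 3, against 22.9%, 27.2% and 27.9% of all genes. Of the 15 peroxisomal genes 3, 6 and 5 lay below all controls and 4, 8 and 6 above, beside 37.2%, 50.4% and 39.2% of all genes above.

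A pattern chosen after the values were seen was that of mutants 2 and 3 below all controls with mutant 1 not below them. It was found in 9 of 39 genes on the brightest probe set, against 5.97% of all genes. The genes were Acad9, Hadha, Echs1 and Acaa2 of mitochondria, Decr2, Acox2 and Ehhadh of peroxisomes, and Acsl5 and Acot12. The Gapdh 3′ minus 5′ signal ran in the same order, with mutant 1 nearest to the controls. In that of Actb the groups overlapped and mutant 1 was the lowest of all arrays. The part of either signal was not tested. The SD was larger in mutants than in controls for 12 of 16 mitochondrial genes, with median SDs of 0.56 and 0.17. So it was for 10 of 15 peroxisomal genes (0.34 and 0.19) and 8 of 8 genes of the third class (0.51 and 0.17). Among all genes it was larger for 60.7% (0.30 and 0.23).

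**Figure D4:**
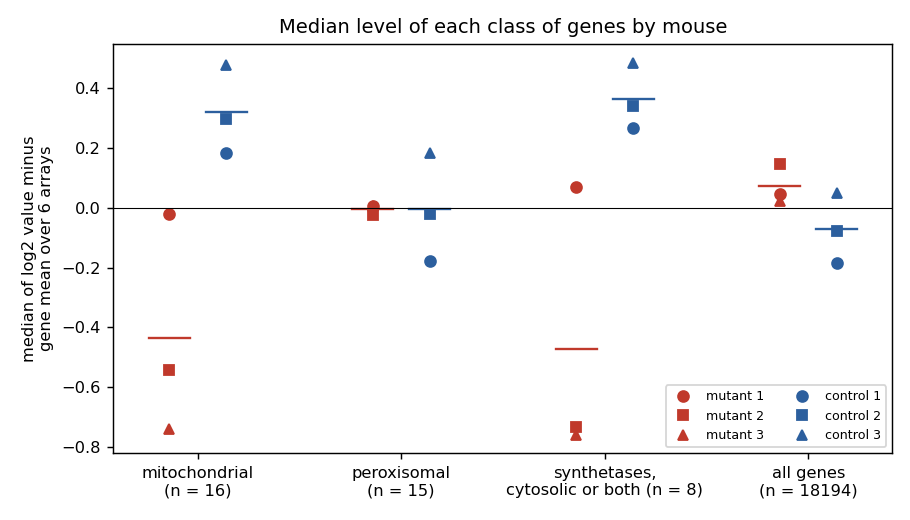
Level of each class of genes by mouse, as the median of gene-centred log2 values (vertical axis) for the classes (horizontal axis), with mutants in red, controls in blue and a short line for the mean of each group. Mitochondrial medians of mutants lie at -0.74 to -0.02 and those of controls at 0.18 to 0.48, and peroxisomal medians overlap. Medians of the synthetases, cytosolic and dual-compartment enzymes also separate, at -0.76 to 0.07 in mutants and 0.27 to 0.49 in controls.

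Age did not match between groups, and the pair of mice that the labels name as concurrent can be compared without a test. Mutant 3 was below control 1 in 14 of 16 mitochondrial genes, with a median difference of -0.74, and in 5 of 15 peroxisomal genes, with a median of 0.22. Over all genes this median was 0.24, and mutant 3 was below control 1 in 6548 of 18194.

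Probe sets of a gene often disagreed. Of 22 members with more than 1 probe set, 14 had the same sign on all and 8 did not, against 50.8% with opposite signs among all genes with several. Those with both signs were Abcd2, Acad9, Acot2, Acot4, Acsl3, Acsl4, Cpt1a and Hsd17b4. Of the called genes, Cpt2 and Decr1 separated the groups on both probe sets and Acadl on 1 of 2.

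Other genes of the pathway came from lists of carriers, ketogenesis, PPAR alpha targets and peroxisome assembly. Of 39 measured genes, 1 fell and 2 rose on the brightest probe set, beside 1.92% and 2.68% of all genes. Acat1, which makes and cleaves acetoacetyl-CoA, fell by 2.43 on the log2 scale (standard error 0.43, with 3 mice in each group, limma adjusted p = 0.0389). It read 9.30, 7.70 and 7.61 in mutants and 10.58, 10.57 and 10.76 in controls, and all 3 of its probe sets had every mutant below every control.

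Slc22a5, the carnitine transporter of the plasma membrane, rose. It read 9.02, 9.73 and 9.09 in mutants and 7.43, 7.79 and 7.53 in controls, a difference of 1.69 (adjusted p = 0.029 from limma), and its second probe set, at 5.26 to 5.80 on all arrays, differed by 0.01 with overlapping groups. Ppargc1b, a coactivator of mitochondrial genes, rose on its only probe set, at 10.73, 11.31 and 10.88 in mutants and 9.44, 9.35 and 9.07 in controls (1.68, adjusted p = 0.0286 from limma). The groups were wide apart for both.

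Genes between the acyl-CoA dehydrogenases and CoQ did not pass the test. Etfa, a subunit of the electron transfer flavoprotein, read 9.92, 7.55 and 7.21 in mutants and 10.09, 10.18 and 10.58 in controls (-2.06, adjusted p = 0.0948 from limma). Its partner Etfb read 10.99, 10.95 and 10.33 against 11.38, 11.34 and 11.48 (-0.65, adjusted p = 0.126 from limma). Every mutant lay below every control for both subunits. Etfdh, which hands the electrons to CoQ, read 9.14, 7.49 and 7.82 in mutants and 8.66, 9.07 and 9.53 in controls (-0.94, adjusted p = 0.216 from limma), and mutant 1 lay within the control range. Slc25a20, the carnitine carrier of the inner membrane, read 10.29, 9.34 and 8.99 in mutants against 10.72, 10.94 and 10.62 (-1.22, adjusted p = 0.0735 from limma).

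Of 13 genes of PPAR alpha, its partners and targets 1 rose, Ppargc1b, and none fell on the brightest probe set. Ppara itself read 10.58, 11.20 and 10.85 in mutants and 10.86, 10.60 and 10.18 in controls on its brightest probe set. It differed by 0.33, 1.14 and -0.78 on its 3 probe sets, of which the second had every mutant above and the third every mutant below the controls. Pdk4, a kinase that holds back pyruvate oxidation, differed by -1.63 (adjusted p = 0.0554 from limma) and Angptl4, a secreted inhibitor of lipoprotein lipase, by 0.81 (adjusted p = 0.158 from limma). On second probe sets, Pex11a of peroxisome division fell by 1.13 and the pantetheinase Vnn1 fell by 1.73 on the log2 scale, with adjusted p = 0.0427 and 0.0392 from limma, while their brightest differed by -0.22 and -1.07. These calls too were lost in each fit without mutant 2, mutant 3 or any 1 of the controls.

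No peroxin, a protein of peroxisome assembly, passed on the brightest probe set of 11 measured genes, with 6 lower and 0 higher before adjustment of p, beside 12.3% and 17.7% of all genes. Other probe sets did not all go the same way. Those of Pex19 differed by -0.33, 1.20 and -0.80 from the brightest on, those of Pex2 by -1.29 and 0.36, and those of Pex3 by -1.14 and -0.004. Pex13 and Pex16 were below 0 on both of their probe sets. Amacr, the racemase of branched acyl-CoAs, differed by -1.32 (adjusted p = 0.0504 from limma), with every mutant below every control. Catalase (Cat) differed by 0.48 on its brightest probe set and by -0.58 on the other, each with no overlap.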

How the data were processed

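Liver RNA of 3 mutants and 3 controls, separate mice per the labels, was hybridized to 1 Affymetrix array each. The authors used dChip with a model of perfect-match probes, which gave the deposited log2 value of every probe set. The sources used here do not name a version of it. The values were taken without further scaling. Detection calls were not used here, so signal over background is unknown, and precision is limited by the number of arrays. Array medians were 5.92 to 6.24. Symbols came from the platform annotation, and probe sets with several (932) or none (9211) were left out.

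A linear model was fitted to 34958 probe sets (limma 3.58.1, R 4.3.3; lmFit, then eBayes), and p-values were adjusted over all of them by the Benjamini-Hochberg method. Where genes were counted, each was represented by its brightest probe set, that of highest mean. The script was tested on simulated data. For 3 mice against 3 the smallest exact permutation p is 0.1.

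Members, classes and lists were chosen with earlier results of these data known, and no set test was run. Array values were to be given for members with a call, for the 3 largest non-overlapping differences in each direction of a class, and for called genes of the pathway lists with Etfa, Etfb, Etfdh, Slc25a20, Ppara and Pdss2. Values of other genes were added after they were seen. Alternatives were quantile normalization, median centring, 1 probe set per gene, the mean of probe sets, bright probe sets, all probe sets, eBayes with trend and robust settings, age, a replicate block, and each mouse left out. Figures were drawn with matplotlib 3.10.9.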

Additional observations from a re-analysis of the deposited data

Results flagged for a closer look

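Some probe sets left out of the comparison because they carry several symbols read members of the pathway, and on 3 of these 4 every mutant lay above every control, beside 20.8% of all probe sets with 1 symbol. Those shared by Acaa1a and Acaa1b differed by 0.87 and 0.61 (mutant minus control, log2; exact two-sided permutation test, p = 0.1 for each, the smallest this design can give), with mutants at 12.29 to 12.71 and 13.10 to 13.35 and controls at 11.43 to 12.01 and 12.49 to 12.91. The 1 shared by Acot1 and Acot2 differed by 0.56 (p = 0.1 from the same exact test), with mutants at 7.25 to 7.56 and controls at 6.58 to 6.99. Its sign was opposite to that of the brightest probe sets of Acot1 (-1.16) and Acot2 (-0.84).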

How the results depend on the processing

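The median difference of the mitochondrial genes was below 0 in every alternative run, from -0.87 to -0.51. That of the peroxisomal genes turned to -0.11 with each array centred on its median and to -0.13 with bright probe sets, with the mean of probe sets and without probe sets named x_at or s_at, an alternative chosen after seeing the data, and was -0.04 to 0.15 with a mouse left out. Centring moved the median of all probe sets from 0.16 to -0.01 and the calls of the whole table from 736 higher and 588 lower to 330 and 556. Quantile normalization gave 519 and 348, bright probe sets 1526 and 1656, the mean of probe sets 309 and 193, and age as a covariate 1275 and 1180.

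Member probe sets called lower were 9 with age, 10 with bright probe sets, 0 with a replicate block and 0 to 20 with a mouse left out, and 1 was called higher with bright probe sets or with trend and robust options (Acad9). Mitochondrial genes called lower were 2 with age or 1 probe set per gene, 4 with bright probe sets, 0 with all probe sets of the table, where Acadl had an adjusted p of 0.0507 from limma, 0 with the replicate block and 0 to 6 with a mouse left out. With the mean of probe sets 1 mitochondrial gene was again called lower, but it was Cpt2 (-1.82, adjusted p = 0.0436 from limma) and not Acadl (0.0779), and Decr1 was lost (0.0541). Of the peroxisomal genes 1, Acot4, was lower with age, bright probe sets, centring, 1 probe set per gene or trend and robust options, and 0 to 3 were with a mouse left out. Of the third class 2, Acad11 and Acot1, were lower with age, bright probe sets or 1 probe set per gene, and 0 to 4 with a mouse left out, when its median was -1.19 to -0.42. Pathway genes called lower were 3 with age, 1 probe set per gene or trend and robust options, 7 with bright probe sets, 0 with the mean of probe sets or the block and 0 to 11 with a mouse left out, and those called higher 1 with the mean, 0 with the block and 0 to 2 with a mouse left out. The mean of the probe sets of Pdss2 differed by 0.0699, against -0.54 on its brightest. Calls without mutant 1 were the highest of each range. The cause of these shifts was not tested.

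The labels do not give equal replicate numbers as pairs, and deviations of same-numbered mice from their group means correlated at 0.14, -0.50 and -0.53. Those of differently numbered mice ran from -0.47 to 0.63, with 0.41 for mutant 3 and control 1, the pair named concurrent. Mutant 2 and control 3 gave 0.63, and mutant 1 and control 2 gave 0.20. Deviations sum to 0 within each group, which forces mixed signs, so these values cannot settle whether mice were paired. The replicate block left 0 calls in the whole table from limma, with 6834 probe sets at an unadjusted p under 0.05. That block set mutant 3 with control 3 and not with control 1. It therefore does not show how the calls would stand with mice paired as the labels name them.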
